A study of Homo sapiens and Mus musculus with 16 samples.

Results

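The mRNA levels of SK-HEP-1 cells after 2 h with AcFBE (library 2T) were compared with those after 2 h with DMSO alone (library 2U). SK-HEP-1 is a human cell line from a liver adenocarcinoma, and AcFBE is an ethanol extract of the fruiting body of the fungus Antrodia cinnamomea, given at 0.5 mg/ml in DMSO. Polyadenylated RNA was sequenced as 1 library per condition, so no value has a replicate, no test was made and each ratio compares 2 libraries rather than 2 conditions. The genes described were those with at least 1 FPKM (fragments per kilobase of transcript, scaled to the mapped fragments of the library) in 2U or 2T, which were 5680 of the 22314 genes in the table. Of these, 5475 were above 0 in both libraries and entered the comparison, 203 were listed at 0 in 2T and are treated apart, and 2 were listed at 0 in 2U. The libraries of the same line after 4 h (4U with DMSO, 4T with AcFBE) are given beside the 2 h values. The cells were grown as dishes of 1 line in medium with serum. In such bulk RNA a change in a share of the cells and a change in every cell cannot be told apart, and a change shared by all mRNAs cannot be seen in FPKM, which are relative to the library.

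The line was checked against marker genes. Of 19 hepatocyte markers only SERPINA1 reached 1 FPKM, at 18.7 and 17 FPKM in 2U and 2T, while ALB, APOA1, APOB, TTR, HNF4A and ASGR1 were listed at 0 in all 4 libraries. Of 15 endothelial markers ENG reached 22.3 and 14.1 FPKM and EGFL7 5.84 and 20.5 FPKM in 2U and 2T, while PECAM1, CDH5, VWF, KDR, TEK and TIE1 were listed at 0 in all 4 libraries. The intermediate filament mRNAs VIM (12525 and 13625 FPKM) and KRT18 (4664 and 6110.3 FPKM) were among the most abundant in 2U and 2T. Of 8 immune cell markers 1 reached 1 FPKM, and the list summed to 13.96 and 8.87 FPKM in 2U and 2T. PTPRC and CD3E of leukocytes were listed at 0. Vimentin and keratin mRNAs were thus high and the defining hepatocyte and endothelial mRNAs were listed at 0. Broadly used genes such as DICER1 and PIK3CA were listed at 0 in all 4 libraries too, so a 0 in this table is not read as absence.

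Many mRNAs can shift within 2 h because they are short-lived or quickly induced. Immediate early genes such as FOS, JUN and EGR1 encode transcription factors that are switched on by serum, growth factors or stress through MAP kinases, and DUSP phosphatases feed back on those kinases. Heat shock genes are induced by heat shock factor when proteins misfold. Genes of the integrated stress response are induced through ATF4, and mRNAs of ribosomal proteins, translation factors and the proteasome are by contrast abundant and mostly long-lived.

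Over the 5475 genes compared, 1289 (23.5%) were at least 2-fold higher in 2T and 1091 (19.9%) at least 2-fold lower, and the median log2 ratio was 0.02 with quartiles of -0.78 and 0.92. These 2 percentages are the background against which the counts of each gene group are given. Low values entered part of the calls, since 41.3% of the higher genes were under 1 FPKM in 2U and 31.7% of the lower genes were under 1 FPKM in 2T.

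**Figure D1:**
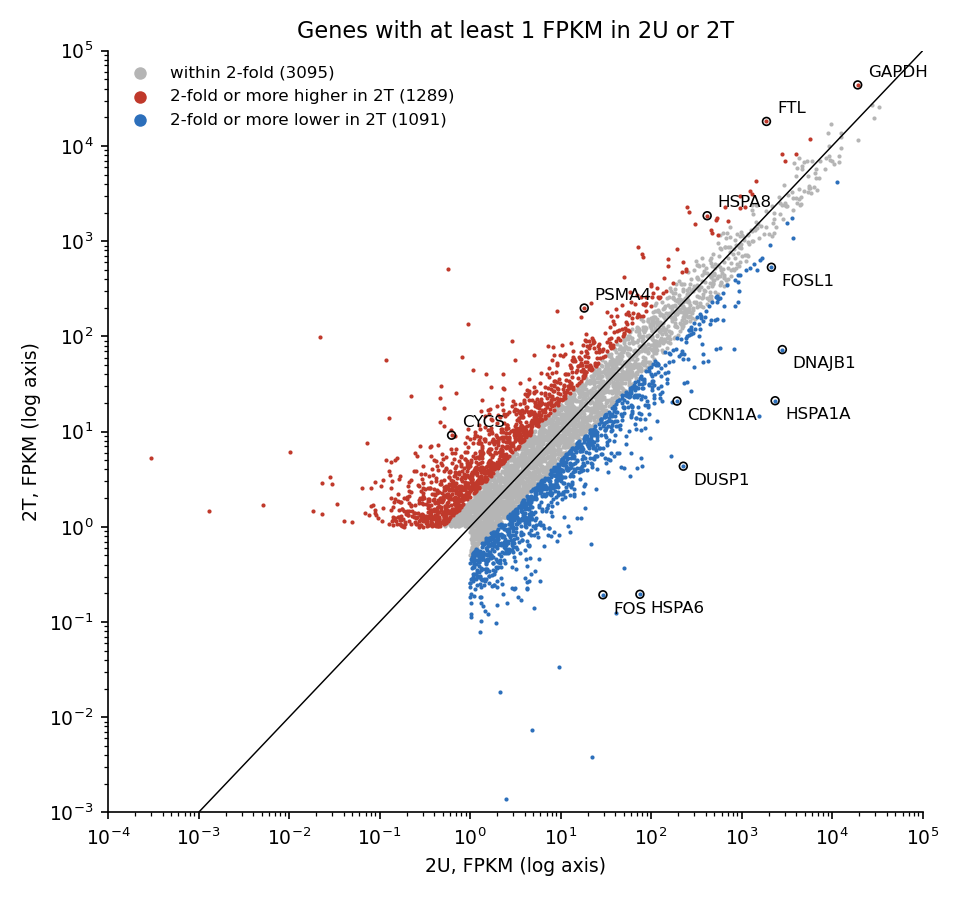
FPKM of each gene in 2U (horizontal, log axis) and 2T (vertical, log axis), 1 point for each of the 5475 genes compared, with the line of equal values. The 1289 genes at least 2-fold higher in 2T are red and the 1091 at least 2-fold lower are blue, and HSPA1A, DNAJB1, HSPA6, FOS and DUSP1 lie far below the line.

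How much 2 libraries of this series differ without extract was read from 4U against 2U, the only such pair. There, 23.8% of 5800 genes were at least 2-fold higher in 4U and 10.4% at least 2-fold lower. Among genes with a geometric mean of at least 20 FPKM, 30.9% were past 2-fold for 2T against 2U, 20.1% for 4U against 2U and 1.31% for 4T against 2T. The treated libraries were thus nearer to each other than the untreated ones were, and differences of the size seen between 2T and 2U also occurred between the untreated libraries. A 4T level close to that in 2T was therefore the usual case at that level and is not particular to the genes named below. The 2 h and 4 h values may also have been made by different versions of the processing, because the 2 h columns hold values between 0 and 0.2 FPKM and the 4 h columns hold none, and its part in the differences between the times was not tested. How the libraries were batched is not given in the sources used here. The value in 4U is therefore given beside those in 2U and 2T. Of the 1289 higher genes, 74% were above both 2U and 4U in 2T and 34.4% were at least 2-fold above 4U as well. For the 1091 lower genes, 91.1% were below both 2U and 4U and 54.3% were at least 2-fold below 4U too. The same 2T value enters both comparisons, so genes called against 2U lie outside 4U more often by construction. These shares are therefore no separate support for the calls. For comparison, 13.2% of 5653 genes were at least 2-fold higher in 2T than in 4U and 21.3% at least 2-fold lower, so lower values were the more frequent against 4U over all genes as well. A 2T level outside both untreated libraries was common. Of 3199 compared genes of at least 5 FPKM in 2U or 2T, 1049 were above 0 in all 4 libraries with 2T above both untreated ones. By the same rule 2T was below both in 1288. Counts of list members outside both are to be read beside these.

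**Figure D2:**
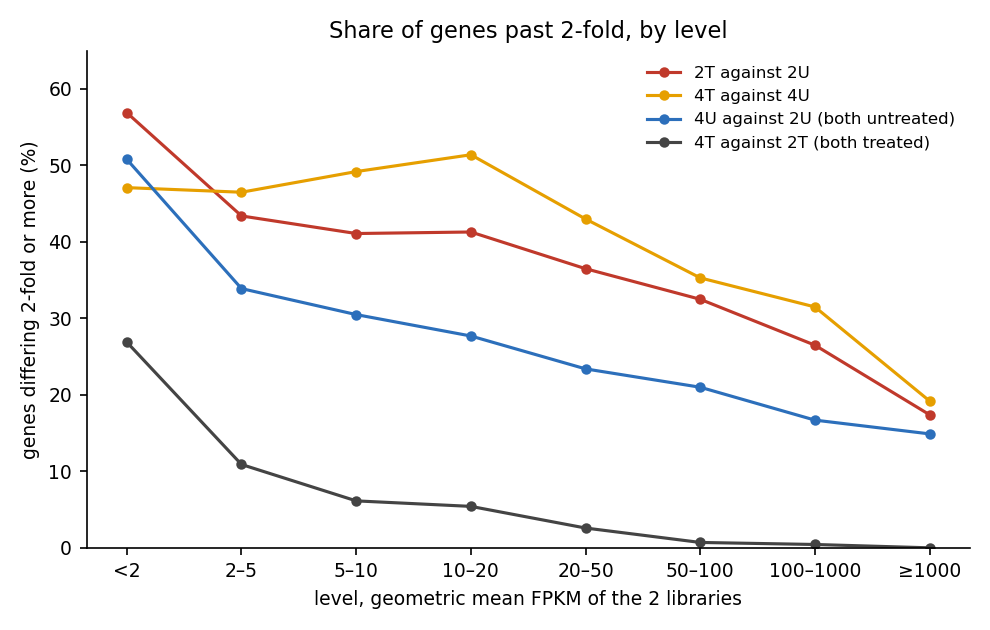
Share of genes that differed by 2-fold or more (vertical, %) by level (horizontal, geometric mean FPKM of the 2 libraries) for 4 pairs of libraries. For 2T against 2U the share falls from 56.9% below 2 FPKM to 17.4% at 1000 FPKM or more, above 4U against 2U in every bin, and 4T against 2T has the lowest share in every bin.

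**Figure D3:**
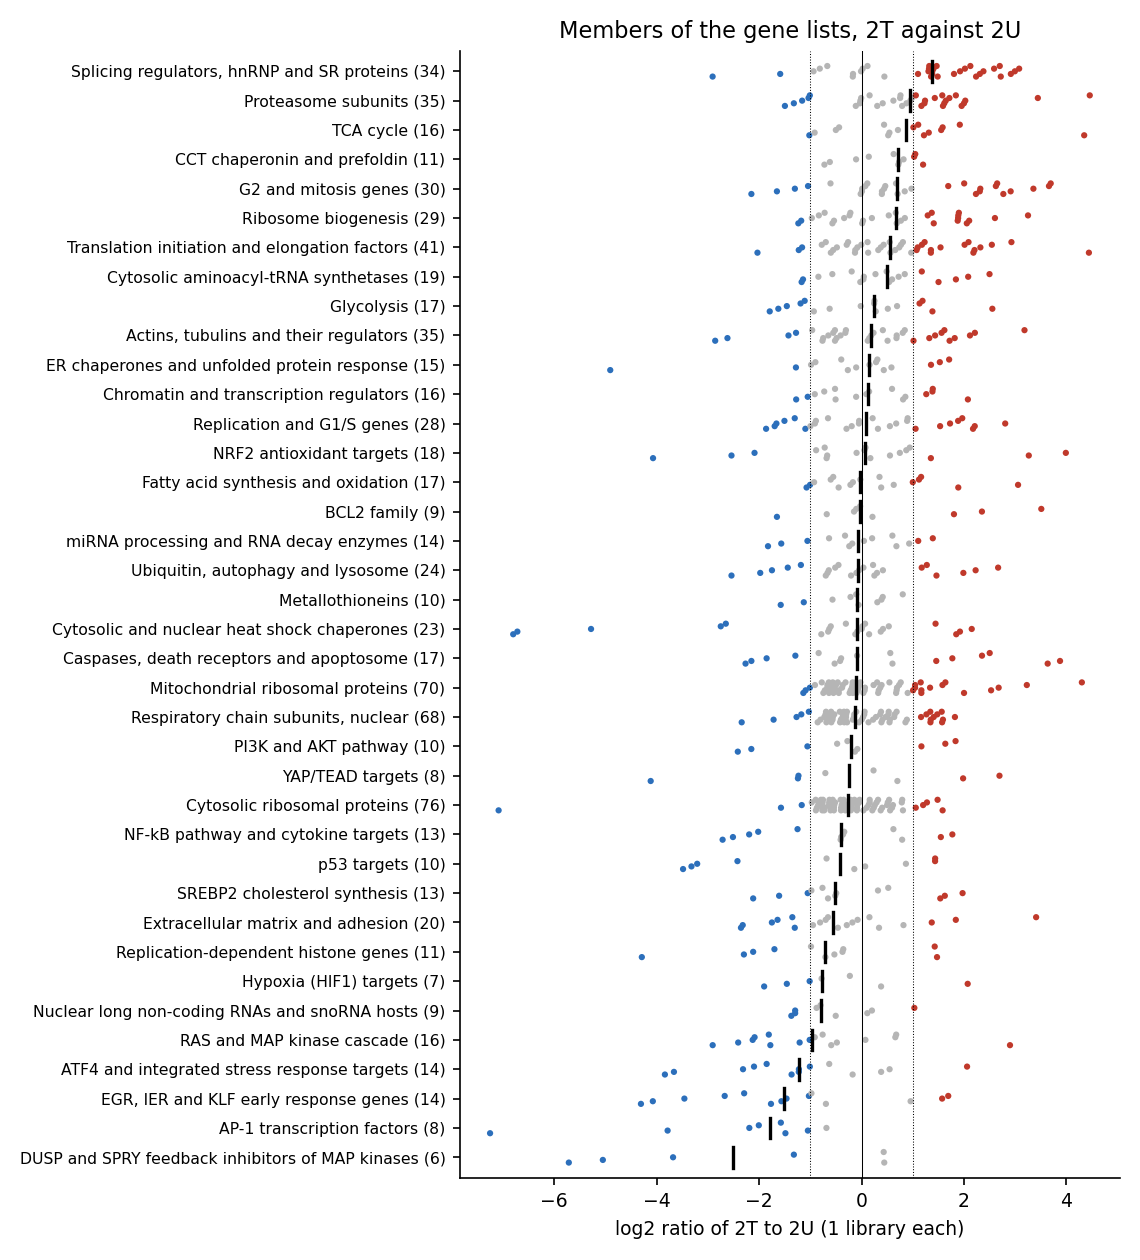
Log2 ratio of 2T to 2U (horizontal) for the compared members of 38 gene lists (vertical, number compared in brackets), 1 point per gene, red at 2-fold or more higher, blue at 2-fold or more lower, with a bar at the median of the list. Medians run from -2.50 for the 6 DUSP and SPRY feedback inhibitors compared (0.43 for the 3 with 1 FPKM in both libraries) to 1.38 for splicing regulators, and most lists hold points on both sides.

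The level of a gene moved with its call, and the part of level in single calls was not tested. Transcript length moved with the lower calls. When the genes were cut into 5 equal groups by longest annotated transcript, in the shortest group 24.6% were higher and 12.4% lower, with a median log2 ratio of 0.20. In the longest group 22.6% were higher and 23.2% lower, with a median of -0.10.

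Among mRNAs of 1000 FPKM or more in 2U, the 3 with the lowest ratio of 2T to 2U were heat shock genes. They were HSPA1A and HSPA1B, the stress-inducible HSP70 genes, and DNAJB1, an HSP40 co-chaperone that works with them. HSPA1A (chromosome 6, 31783320 to 31785723 in GRCh37) was at 2347 FPKM (2U), 21.1 (2T), 473 (4U) and 11.9 (4T). HSPA1B, its neighbour on that chromosome, was at 1539 FPKM (2U), 14.6 (2T), 343 (4U) and 9.82 (4T). DNAJB1 (chromosome 19, 14625581 to 14671203) was at 2820.1 FPKM (2U), 72.6 (2T), 596 (4U) and 84.6 (4T). For all 3 the level was highest in 2U, second in 4U and far lower in both treated libraries. The level in 2T was 111-fold below 2U for HSPA1A, 105-fold for HSPA1B and 38.8-fold for DNAJB1. HSPA6, a strictly inducible HSP70 on chromosome 1, was at 75.3 FPKM (2U), 0.196 (2T), 3.6 (4U) and 0.28 (4T). HSPA1A and HSPA1B are near-identical copies, and so are HSPA6 and its pseudogene HSPA7 (41.2 and 0.125 FPKM in 2U and 2T), so the split of reads between the members of each pair is uncertain while the direction of both was the same.

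The wider list of cytosolic and nuclear chaperones, which leaves out HSPA6 and HSPA7, did not have 1 direction. Of 30 genes, 23 were compared, 5 were at least 2-fold lower and 4 at least 2-fold higher, with a median log2 ratio of -0.08. SERPINH1, a collagen chaperone, was lower at 25.5 FPKM (2U), 4.06 (2T) and 13.8 (4U). BAG1, an HSP70 cofactor, was lower at 3.59 FPKM (2U), 0.534 (2T) and 1.4 (4U). HSPA8, the constitutive HSP70, was higher, at 416 FPKM (2U), 1849.8 (2T), 855 (4U) and 2148 (4T). The inducible and the constitutive HSP70 mRNAs thus had opposite ratios, and for HSPA8 both treated libraries lay above both untreated ones. STIP1, which links HSP70 and HSP90, was higher at 6.66 FPKM (2U), 24 (2T) and 17 (4U). HSP90AA1, the inducible HSP90, was within 2-fold at 109 FPKM (2U), 141 (2T), 36 (4U) and 111 (4T), as was HSPB1, a small heat shock protein, at 938 FPKM (2U), 544 (2T), 788 (4U) and 403 (4T). The factor HSF1, which drives the heat shock promoters, was at 9.84 FPKM (2U), 10.9 (2T), 29.1 (4U) and 9.35 (4T), so its own mRNA did not follow the HSPA1A pattern against 2U. Summed over the list, chaperone mRNA was 1.15% of all FPKM in 2U against 0.451% (2T), 0.439% (4U) and 0.448% (4T), so for the sum 2U stood apart from the other 3 libraries, 4U included.

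Promoters of this group are shown because HSP70 genes with opposite ratios carry the same short sequence. The core of the heat shock element, GAANNTTC (its own reverse complement), was searched in RefSeq promoters of GRCh38.p14, from 250 bases before to 50 after the start of transcription. It was found in 10 of the 21 compared chaperone genes with a promoter in that table, in 8.21% of all 27305 symbols and in 5.84% of the compared genes. Of the lower members it was in HSPA1A, HSPA1B, DNAJB1 and SERPINH1, and of the higher members in HSPA8. The 250 bases before the start are printed 5′ to 3′ on the strand of the gene, with GAANNTTC in capitals; for DNAJB1, the start shown is the 1 of its 3 listed starts whose 250 bases hold the letters.
HSPA1A (chr6:31815293-31815542, plus strand): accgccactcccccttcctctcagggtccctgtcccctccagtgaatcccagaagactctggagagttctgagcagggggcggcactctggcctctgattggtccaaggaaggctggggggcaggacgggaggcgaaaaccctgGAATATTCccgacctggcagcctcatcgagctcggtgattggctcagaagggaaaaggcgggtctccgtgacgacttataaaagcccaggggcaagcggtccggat
HSPA6 (chr1:161524290-161524539, plus strand): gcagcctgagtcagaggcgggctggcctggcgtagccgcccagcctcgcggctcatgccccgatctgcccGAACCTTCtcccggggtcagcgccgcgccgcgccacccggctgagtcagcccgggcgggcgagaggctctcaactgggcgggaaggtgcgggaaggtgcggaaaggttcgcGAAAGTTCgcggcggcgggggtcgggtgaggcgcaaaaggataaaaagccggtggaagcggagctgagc
DNAJB1 (chr19:14518398-14518647, minus strand): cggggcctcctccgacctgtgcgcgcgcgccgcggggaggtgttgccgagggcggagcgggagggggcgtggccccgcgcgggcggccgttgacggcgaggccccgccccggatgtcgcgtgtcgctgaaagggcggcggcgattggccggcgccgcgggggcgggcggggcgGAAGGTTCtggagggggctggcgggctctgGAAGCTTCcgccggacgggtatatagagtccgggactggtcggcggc
HSPA8 (chr11:123062137-123062386, minus strand): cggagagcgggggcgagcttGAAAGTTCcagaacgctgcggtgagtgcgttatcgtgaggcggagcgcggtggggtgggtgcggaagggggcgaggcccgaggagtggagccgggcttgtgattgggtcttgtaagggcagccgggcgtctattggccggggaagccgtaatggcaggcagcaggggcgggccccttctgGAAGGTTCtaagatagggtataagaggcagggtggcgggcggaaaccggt
With the first base of the transcript as 1 and the base before it as -1, the matches begin at -106 in HSPA1A, at -180 and -69 in HSPA6, at -77 and -47 in DNAJB1 and at -230 and -50 in HSPA8. A match describes letters only, and HSPA8, with as many matches as the DNAJB1 start shown, was higher in 2T where DNAJB1 was lower.

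AP-1 transcription factors, the dimers of FOS and JUN proteins that carry growth factor signals to the genome, were lower in 2T almost throughout. Of 13 genes 8 were compared, 7 were at least 2-fold lower and 0 higher, with a median log2 ratio of -1.79, beside 19.9% lower and a median of 0.02 over all genes. FOS (chromosome 14, 75745529 to 75748933) was at 29.4 FPKM (2U), 0.193 (2T), 43.3 (4U) and 1.09 (4T). JUN (chromosome 1, 59242517 to 59249720) was at 13.4 FPKM (2U), 2.93 (2T), 20.2 (4U) and 3.72 (4T). FOSL1, by far the most abundant member in this line, was at 2134 FPKM (2U), 532 (2T), 1149 (4U) and 324 (4T). In all 3 both treated libraries lay below both untreated ones, and 2T was below both 2U and 4U in all 8 genes. JUND was at 16.9 FPKM (2U), 1.23 (2T), 11.4 (4U) and 3.75 (4T). FOSL2 was at 25.5 FPKM (2U), 9.12 (2T) and 20.2 (4U). ATF3, a stress-induced member, was the one within 2-fold at 2 h, at 2.7 FPKM (2U), 1.68 (2T), 16 (4U) and 1.73 (4T). FOSB was listed at 0 in 2T and stood at 1.71 FPKM in 2U.

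Other early response genes were also mostly lower, with 9 of 14 compared genes of the EGR, IER and KLF list at least 2-fold lower, 2 higher and a median log2 ratio of -1.51. IER2, induced within minutes by serum, was at 69.5 FPKM (2U), 4.13 (2T), 114 (4U) and 4.75 (4T). GADD45B, a stress sensor that binds MAP kinase kinases, was at 47 FPKM (2U), 4.28 (2T), 21.2 (4U) and 5.22 (4T). In both the 2 treated libraries were close to each other and several-fold below the untreated ones. KLF6, a zinc finger factor, was at 1.95 FPKM (2U), 0.0987 (2T) and 0.693 (4U). The kinase SGK1 was at 35.7 FPKM (2U), 12.9 (2T) and 25.9 (4U). EGR1, the textbook early gene, was listed at 0 in 2T and was at 18.6 FPKM in 2U, 39.8 in 4U and 0.81 in 4T. Against these, ID2, an inhibitor of helix-loop-helix factors, was higher, at 8.18 FPKM (2U), 26.4 (2T), 6.7 (4U) and 50.2 (4T). It was the 1 member of the list with 2T above both 2U and 4U, and the other higher member was above 2U but below 4U.

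**Figure D4:**
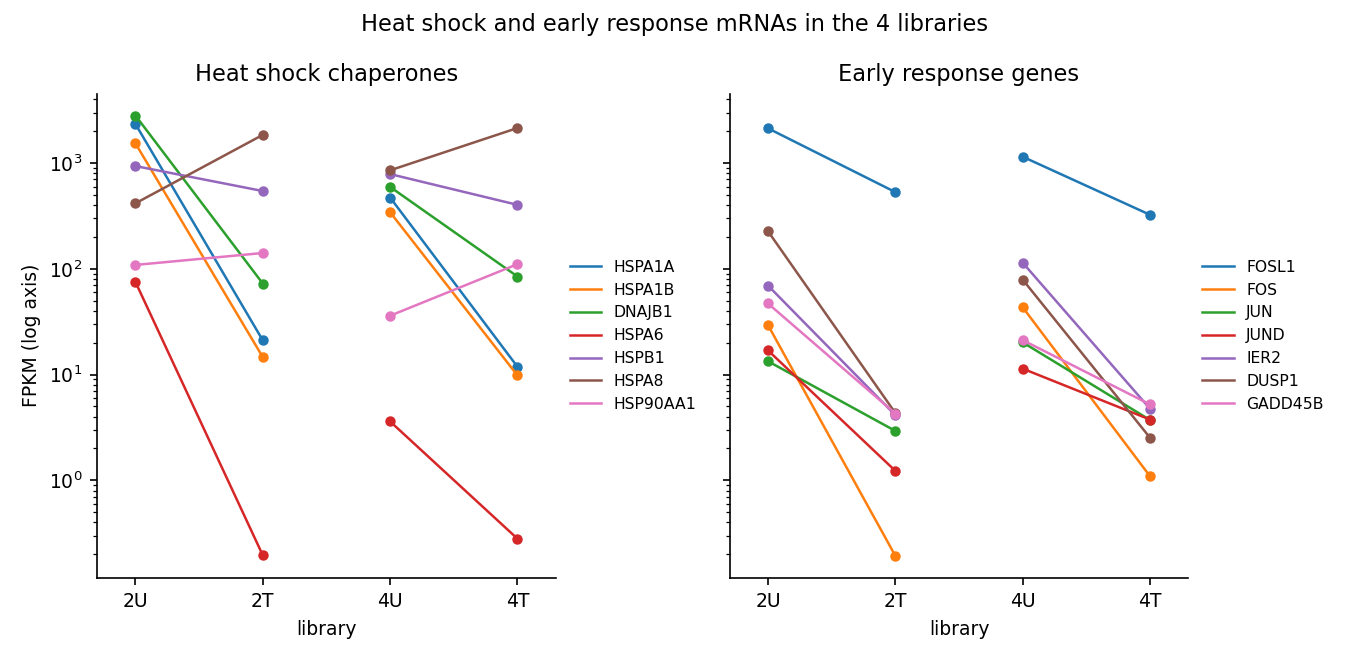
FPKM (vertical, log axis) of 7 heat shock chaperone mRNAs (left) and 7 early response mRNAs (right) in 2U, 2T, 4U and 4T, 1 point per library with a line from the untreated to the treated library of each time. HSPA1A, HSPA1B, DNAJB1 and HSPA6 drop in both treated libraries from a higher level in 2U than in 4U, HSPA8 goes the other way, and the 7 early genes are lower in both treated libraries.

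Few feedback inhibitors of MAP kinases reached 1 FPKM. Of 16 DUSP and SPRY genes 6 were compared, and 4 of them were at least 2-fold lower in 2T. Their median log2 ratio was -2.50, and it was 0.43 over the 3 genes with 1 FPKM in both libraries, which leaves out DUSP5, DUSP6 and SPRED2. DUSP1, which dephosphorylates p38, JNK and ERK, was at 227 FPKM (2U), 4.33 (2T), 79.1 (4U) and 2.53 (4T), a 52.4-fold difference at 2 h. DUSP5, specific to nuclear ERK, was at 21.8 FPKM (2U), 0.658 (2T), 5.84 (4U) and 0.537 (4T). DUSP6, its cytoplasmic counterpart, was at 1.31 FPKM (2U), 0.102 (2T) and 1.11 (4U). These 3 were lower in 2T than in either untreated library, whereas DUSP3 (3.5 and 4.77 FPKM in 2U and 2T) and DUSP14 (3.92 and 5.29 FPKM) were within 2-fold. The DUSP1 promoter is shown for its cAMP response element, TGACGTCA (its own reverse complement), in capitals and beginning at -125, letters that 2.25% of all symbols and 3.87% of the compared genes hold in the same window.
DUSP1 (chr5:172771196-172771445, minus strand): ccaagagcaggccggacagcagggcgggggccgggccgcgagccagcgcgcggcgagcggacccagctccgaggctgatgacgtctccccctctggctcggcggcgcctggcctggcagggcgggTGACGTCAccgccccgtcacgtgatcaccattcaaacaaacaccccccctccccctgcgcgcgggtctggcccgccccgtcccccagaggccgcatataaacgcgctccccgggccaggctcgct

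The RAS and MAP kinase cascade itself, which carries signals from receptors to these genes, had 8 of 16 compared members at least 2-fold lower and 1 higher, with a median log2 ratio of -0.96. MAP2K1, which encodes MEK1, was at 7.83 FPKM (2U), 1.84 (2T) and 4.4 (4U). MAP2K3, a kinase of p38, was at 73.8 FPKM (2U), 31.9 (2T) and 92.9 (4U). SHC1, an adaptor of receptor kinases, was at 36.6 FPKM (2U), 10.4 (2T) and 37.5 (4U). The level in 2T was below both untreated libraries in these 3 and in 12 of the 16 overall. HRAS was within 2-fold at 2 h, at 84.1 FPKM (2U), 49.7 (2T), 72 (4U) and 26.5 (4T). EGFR was the single higher member, at 0.345 FPKM in 2U, 2.57 in 2T and 0.531 in 4U, and was listed at 0 in 4T. EGFR was thus low in all 4 libraries.

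NF-kB is a transcription factor held in the cytoplasm by IkB proteins until IKK kinases release it. Its list had 5 of 13 compared genes lower and 2 higher, with a median log2 ratio of -0.40. RELA, the p65 subunit, was at 18.1 FPKM (2U), 4.48 (2T), 14.8 (4U) and 3.35 (4T). NFKBIA, which encodes IkB alpha, was at 18.4 FPKM (2U), 2.81 (2T), 20 (4U) and 5.55 (4T). NFKBIE, another IkB, was at 14.2 FPKM (2U), 2.5 (2T) and 5.9 (4U). Subunit and inhibitors were thus lower together in 2T than in either untreated library. IKBKB, an IKK kinase, was at 1.05 FPKM (2U), 0.442 (2T), 1.02 (4U) and 0.289 (4T), close to the level of 1 FPKM that admitted a gene. RELB, a subunit of the alternative pathway, was higher at 1.19 FPKM (2U), 3.49 (2T) and 2.68 (4U). NFKB1 was under 1 FPKM in all 4 libraries, and the cytokine targets IL6, IL8, CXCL1, CXCL2 and CCL2 did not reach 1 FPKM in 2U or 2T, so the list says little about NF-kB targets.

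Targets of YAP and TEAD, which respond to cell spreading, had 3 of 8 lower and 2 higher. CTGF, a matricellular growth factor, was at 58.5 FPKM (2U), 3.38 (2T), 88.6 (4U) and 4.12 (4T). The receptor kinase AXL was at 118 FPKM (2U), 50.1 (2T), 102 (4U) and 47.2 (4T). ANKRD1, a nuclear cofactor, was higher at 0.229 FPKM (2U), 1.48 (2T) and 0.438 (4U). CTGF and AXL were thus lower in both treated libraries, while ANKRD1 stood near 1 FPKM. Extracellular matrix and adhesion genes had 6 of 20 lower and 3 higher, with a median log2 ratio of -0.56. PLAU, the urokinase protease, was at 132 FPKM (2U), 25.8 (2T), 105 (4U) and 59.9 (4T). The integrin alpha subunit ITGA5 was lower at 13 FPKM (2U), 2.6 (2T) and 6.49 (4U), while ITGB1, the beta subunit it pairs with, was higher at 5.73 FPKM (2U), 20.5 (2T) and 2.53 (4U). The 2 integrin subunits thus had opposite directions. Of 26 TGF-beta pathway genes 3 could be compared, of which 2 were lower.

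Genes that ATF4 induces in the integrated stress response were mostly lower in 2T, with 9 of 14 compared genes at least 2-fold lower, 1 higher and a median log2 ratio of -1.22. ATF4 itself was at 535 FPKM (2U), 229.5 (2T), 431 (4U) and 309.7 (4T). TRIB3, a pseudokinase, was at 28.7 FPKM (2U), 5.77 (2T), 15.7 (4U) and 4.81 (4T). SESN2, which restrains mTORC1, was at 12.7 FPKM (2U), 0.891 (2T), 5.41 (4U) and 0.688 (4T). In these 3 both treated libraries were below both untreated ones. PPP1R15A, which ends the response by directing phosphatase to eIF2, was at 32.9 FPKM (2U), 7.68 (2T), 31 (4U) and 6.83 (4T). CHAC1, which degrades glutathione, was at 5.74 FPKM (2U), 0.454 (2T) and 7.74 (4U). Of the enzymes of serine and glycine synthesis, PHGDH was at 66 FPKM (2U), 32.8 (2T) and 33.7 (4U) and also lower. DDIT3, which encodes CHOP, was listed at 0 in 2T and was at 116 FPKM in 2U, 50.2 in 4U and 11 in 4T. SLC7A5, an amino acid transporter, was the higher one against 2U but lay below 4U, at 0.862 FPKM (2U), 3.59 (2T) and 6.18 (4U).

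Chaperones of the endoplasmic reticulum did not share that direction. Of 15 compared genes 3 were higher and 2 lower, with a median log2 ratio of 0.16. CALR, a calcium-binding lectin chaperone, was at 54.9 FPKM (2U), 179.6 (2T), 133 (4U) and 168 (4T). HSP90B1, the HSP90 of this compartment, was at 19.1 FPKM (2U), 48.9 (2T), 11.5 (4U) and 41 (4T). HSPA5, its HSP70, was at 40.9 FPKM (2U), 50.7 (2T), 47.2 (4U) and 52.9 (4T) and so nearly level in all 4 libraries. HERPUD1, a regulator of ER-associated degradation, had the lowest ratio of the list, at 164 FPKM (2U), 5.48 (2T), 23.6 (4U) and 8.32 (4T). XBP1, a transcription factor of the unfolded protein response, was below 2U and above 4U in 2T, at 58.1 FPKM (2U), 23.9 (2T) and 13.4 (4U). The 2 lower members were thus regulators and the higher ones folding factors.

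Of the p53 targets 10 were compared, 4 lower and 2 higher. CDKN1A, the p21 inhibitor of cyclin-dependent kinases, was at 193 FPKM (2U), 20.9 (2T), 89.1 (4U) and 30.7 (4T). GDF15, a stress-induced secreted factor, was at 96.4 FPKM (2U), 8.62 (2T), 65.2 (4U) and 6.69 (4T). PLK3, a stress-regulated kinase, was at 24.7 FPKM (2U), 2.47 (2T), 17.2 (4U) and 1.92 (4T). These 3, like the fourth lower member AEN at 107 FPKM (2U), 19.9 (2T), 75.2 (4U) and 16.9 (4T), were lower in both treated libraries than in both untreated ones. The higher members TP53I3, at 6.27 FPKM (2U), 17 (2T) and 24.9 (4U), and FDXR, at 2.58 FPKM (2U), 6.98 (2T) and 9.07 (4U), lay below 4U. Of the hypoxia targets 3 of 7 were lower, among them the glucose transporter SLC2A1 at 39.8 FPKM (2U), 14.5 (2T), 47.6 (4U) and 11.9 (4T). ADM, a secreted peptide hormone, was the higher one at 13.3 FPKM (2U), 56.1 (2T) and 48.7 (4U).

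NRF2 targets, which supply glutathione and remove oxidants, gave no common direction, with 3 of 18 higher, 3 lower and a median log2 ratio of 0.07. GCLM, a subunit of the enzyme that starts glutathione synthesis, was lower at 4.53 FPKM (2U), 0.27 (2T) and 1.56 (4U). SQSTM1, the p62 receptor of autophagy, was lower at 379 FPKM (2U), 65.2 (2T), 163 (4U) and 58.4 (4T). SQSTM1 overlaps MGAT4B on the other strand, so the split of reads within the pair is uncertain. MGAT4B was at 1.08 FPKM (2U), 44.1 (2T), 46.7 (4U) and 11.2 (4T). The summed FPKM of both was 380.0 (2U), 109 (2T), 209 (4U) and 69.7 (4T), a log2 ratio of -1.80 for the sum at 2 h. FTL, the ferritin light chain, was 9.61-fold higher, at 1883 FPKM (2U), 18098 (2T), 14208 (4U) and 19004 (4T). Its value in 2U was the one that stood apart, as 4U was close to the treated libraries. TKT, of the pentose phosphate pathway, was above 2U and below 4U, at 17.6 FPKM (2U), 45 (2T) and 61.5 (4U). NFE2L2, which encodes NRF2 itself, had the highest ratio of the list, at 0.0885 FPKM (2U), 1.4 (2T), 0.508 (4U) and 1.77 (4T). It was higher in both treated libraries than in both untreated ones but low in all 4. HMOX1, a widely used marker of this response, was within 2-fold at 5.42 FPKM (2U), 3.3 (2T), 5.24 (4U) and 1.42 (4T). NQO1 and SLC7A11 did not reach 1 FPKM in 2U or 2T. Metallothioneins, which bind zinc and copper, were within 2-fold in 8 of 10 cases and lower in 2. MT2A was the most abundant, at 3750.0 FPKM (2U), 6551 (2T), 12839 (4U) and 8362 (4T), and MT1X was lower, at 159.7 FPKM (2U), 53.5 (2T), 121 (4U) and 71.9 (4T).

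Apoptosis genes were found in both directions. In the BCL2 family 3 of 9 compared genes were higher and 1 lower, with a median log2 ratio of -0.03. BAX, which permeabilises the outer mitochondrial membrane (chromosome 19, 49458072 to 49465055), was at 0.937 FPKM (2U), 10.7 (2T), 4.9 (4U) and 7.38 (4T), 11.4-fold higher in 2T. Both treated values exceeded both untreated ones, though 4U was several-fold above 2U. BAD, another pro-death member, was at 13.7 FPKM (2U), 69.7 (2T) and 72.4 (4U), and it overlaps GPR137 on the other strand (35.8 and 5.93 FPKM in 2U and 2T). MCL1, a short-lived survival factor, was the lower one at 2.94 FPKM (2U), 0.938 (2T), 3.06 (4U) and 1.65 (4T). BCL2L1, whose long form is BCL-XL, was at 13.9 FPKM (2U), 12.5 (2T), 28.2 (4U) and 9.77 (4T) and so level at 2 h.

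Among caspases, death receptors and apoptosome genes, 6 of 17 were higher and 4 lower. CYCS, which encodes cytochrome c (chromosome 7, 25158275 to 25164879), was at 0.625 FPKM (2U), 9.17 (2T), 4.51 (4U) and 12.9 (4T). DIABLO, released from mitochondria along with it, was at 4.2 FPKM (2U), 23.8 (2T), 4.71 (4U) and 18.3 (4T). CASP4, an inflammatory caspase, was at 5.1 FPKM (2U), 26 (2T), 3.71 (4U) and 21.3 (4T). In these 3 both treated libraries were above both untreated ones. TNFRSF12A, a receptor of the TNF family, was at 5.12 FPKM (2U), 63.5 (2T) and 61.9 (4U), so here 2U stood apart. BIRC5, survivin, was lower at 85.2 FPKM (2U), 19.2 (2T), 82 (4U) and 23.9 (4T). EPR1, an antisense transcript of that locus, was at 0.116 FPKM (2U), 56.7 (2T), 0.704 (4U) and 56.6 (4T). The summed FPKM of the 2 entries was 85.3 (2U), 75.9 (2T), 82.7 (4U) and 80.5 (4T). The lower value of BIRC5 was thus matched by the higher value of EPR1, and which strand the reads came from cannot be told from the table.

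The PI3K and AKT pathway, a survival signal, had 3 of 10 genes higher and 3 lower. AKT1 was lower at 12.3 FPKM (2U), 5.91 (2T), 19.4 (4U) and 2.13 (4T), whereas AKT2 was higher at 1.95 FPKM (2U), 4.39 (2T) and 3.46 (4U). PIK3CD, a catalytic subunit of PI3K, was lower at 2.17 FPKM (2U), 0.49 (2T) and 1.05 (4U). MLST8, a part of both mTOR complexes, was higher at 9.13 FPKM (2U), 28.4 (2T) and 26.4 (4U). The 2 AKT genes thus had opposite ratios. PIK3CA and MTOR did not reach 1 FPKM in 2U or 2T.

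Proteasome subunits were more often higher than lower in 2T. Of 35 compared genes 16 were at least 2-fold higher and 5 lower, with a median log2 ratio of 0.95, and in 25 of them 2T was above both untreated libraries. PSMA4, an alpha subunit of the core particle, was at 18.3 FPKM (2U), 198 (2T), 67.6 (4U) and 326 (4T). PSMA6, another, was at 70.4 FPKM (2U), 273 (2T), 135 (4U) and 344 (4T). PSMC5, an ATPase of the regulatory particle, was at 138 FPKM (2U), 413 (2T) and 172 (4U). In these the treated value was at least 2-fold above both untreated ones. The beta subunits PSMB3, at 1673 FPKM (2U), 669.7 (2T) and 1332 (4U), and PSMB4, at 3209 FPKM (2U), 1567 (2T) and 2022 (4U), were lower instead. PSMB5, which carries the chymotrypsin-like site, was level at 1410.2 FPKM (2U), 1380.0 (2T) and 1401 (4U). The activator PSME3 was lower at 142 FPKM (2U), 50.5 (2T) and 68.2 (4U) and overlaps BECN1 on the other strand (4.83 and 13.3 FPKM in 2U and 2T). The split ran between subunits of the same particle. Summed over the list, proteasome mRNA was 1.73% of all FPKM in 2U against 1.83% (2T), 1.42% (4U) and 1.83% (4T), so the sum moved less than the median gene.

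Ubiquitin, autophagy and lysosome genes were mixed, with 6 of 24 higher and 5 lower. UBA1, the main ubiquitin-activating enzyme, was lower at 339 FPKM (2U), 101 (2T), 206 (4U) and 69.7 (4T). The conjugating enzyme UBE2N was higher at 3.24 FPKM (2U), 15.2 (2T), 7.9 (4U) and 21.7 (4T). The CCT chaperonin, which folds actin and tubulin, and prefoldin had 3 of 11 higher and 0 lower, with a median log2 ratio of 0.72. CCT5 was at 177 FPKM (2U), 366 (2T), 96.9 (4U) and 395 (4T) and CCT8 at 147 FPKM (2U), 299 (2T), 67.5 (4U) and 324 (4T). Both were higher in both treated libraries than in both untreated ones, while CCT3 and CCT7 were listed at 0 in 2T.

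Translation factors were more often higher than lower in 2T, at 15 and 3 of 41, with a median log2 ratio of 0.56. EEF1A1, which brings aminoacyl-tRNA to the ribosome, was at 265 FPKM (2U), 2017 (2T), 391 (4U) and 2081 (4T). It has many processed copies in the genome, which makes its level uncertain. EIF4A1, the helicase of cap-dependent initiation, was at 307 FPKM (2U), 1532 (2T), 738 (4U) and 1589.9 (4T). EIF3J, a subunit of eIF3, was at 0.257 FPKM (2U), 5.57 (2T) and 3.17 (4U). In each of these 2T was above both untreated values, and the same held for 24 of the 41. EIF1, which guards start codon choice, was lower at 846 FPKM (2U), 207 (2T) and 409 (4U). EIF3F was lower at 570.5 FPKM (2U), 255 (2T) and 436 (4U), while EIF3G, in the same complex, was above 2U and below 4U, at 102 FPKM (2U), 261 (2T) and 389.7 (4U). Subunits of eIF3 therefore did not share a direction.

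Aminoacyl-tRNA synthetases had 5 of 19 higher and 2 lower. NARS, for asparagine, was at 1.33 FPKM (2U), 7.54 (2T), 1.1 (4U) and 9.04 (4T). DARS, for aspartate, was at 2.33 FPKM (2U), 9.86 (2T), 3.42 (4U) and 10.9 (4T). FARSA, a subunit for phenylalanine, was lower at 112 FPKM (2U), 50 (2T) and 86.6 (4U). Ribosome biogenesis genes had 11 of 29 higher and 2 lower, with a median log2 ratio of 0.67, and against 4U the median was 0.15 with 7 higher and 3 lower. The abundant nucleolar protein NPM1 was at 152 FPKM (2U), 654 (2T), 170.3 (4U) and 688 (4T). NCL, nucleolin, was at 1.24 FPKM (2U), 11.8 (2T), 3.21 (4U) and 12.8 (4T). In both the treated libraries lay several-fold above the untreated ones. DKC1, the pseudouridine synthase of snoRNPs, was higher at 11.1 FPKM (2U), 40.7 (2T) and 11.9 (4U), and its partner NOP10 was lower at 276 FPKM (2U), 117 (2T) and 154 (4U).

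Cytosolic ribosomal proteins made up 40% of all FPKM in 2U and 36.8% in 2T and were nearly level. Of 76 compared genes 5 were higher and 3 lower, both far below the share over all genes, and the median log2 ratio was -0.26. Among all compared genes with a geometric mean of 1000 FPKM or more, 11.6% were higher and 5.79% lower, also below those shares. RPL3 was at 1431 FPKM (2U), 4287 (2T), 2603 (4U) and 4276 (4T). RPL4 was at 3047 FPKM (2U), 7011 (2T), 3295 (4U) and 6588 (4T). RPL5 was at 1292 FPKM (2U), 3129.9 (2T), 1289 (4U) and 3306 (4T). These 3 were higher in both treated libraries than in both untreated ones. RPL32 was lower at 1499 FPKM (2U), 504 (2T) and 642 (4U). RPL21 was at 50.4 FPKM (2U), 0.372 (2T), 0.782 (4U) and 144 (4T), while its processed copy RPL21P28, named after its values were seen, was at 79.2 FPKM (2U), 739.7 (2T), 306 (4U) and 713 (4T). Reads of near-identical copies cannot be assigned with certainty, and the 2 entries moved in opposite directions between 2U and 2T. Mitochondrial ribosomal proteins had 14 of 70 higher and 3 lower, with MRPS7 higher at 61.1 FPKM (2U), 137 (2T) and 113 (4U) and MRPL37 lower at 542 FPKM (2U), 247 (2T) and 450.5 (4U).

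**Figure D5:**
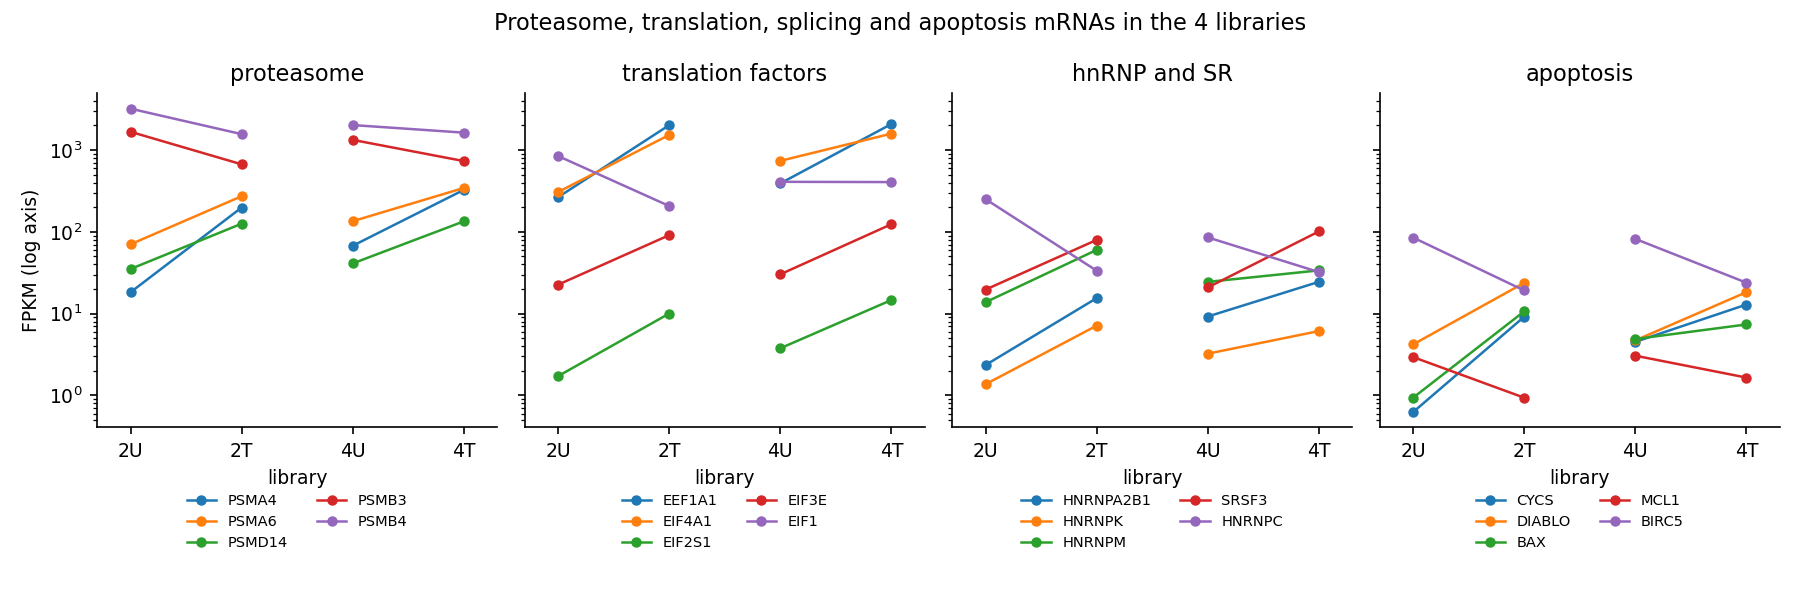
FPKM (vertical, log axis) of 5 mRNAs each of the proteasome, translation factors, hnRNP and SR proteins, and apoptosis in 2U, 2T, 4U and 4T, 1 point per library with a line from the untreated to the treated library of each time. EEF1A1, EIF4A1, PSMA4, HNRNPA2B1, CYCS and DIABLO are higher in both treated libraries, while EIF1, PSMB3, PSMB4, HNRNPC and BIRC5 are lower in 2T than in 2U.

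Among the lists with 10 or more genes compared, splicing regulators had the largest share of higher genes, 23 of 34, with 2 lower and a median log2 ratio of 1.38. These proteins bind pre-mRNA and steer the choice of exons. SRSF3, an SR protein, was at 19.7 FPKM (2U), 79.7 (2T), 20.9 (4U) and 101 (4T). SRSF7, another, was at 44.5 FPKM (2U), 116 (2T), 59 (4U) and 137 (4T). HNRNPA1, which often opposes SR proteins, was at 16 FPKM (2U), 60.6 (2T), 38 (4U) and 109 (4T). In all 3 both treated libraries lay above both untreated ones, though HNRNPA1 has many processed copies. HNRNPC, which binds uridine tracts of nascent RNA, was the main exception, at 251 FPKM (2U), 33.5 (2T), 85.6 (4U) and 32.2 (4T). The other lower member, SRSF9, was at 2.96 FPKM (2U), 0.985 (2T), 1.13 (4U) and 1.99 (4T). The list's median log2 ratio was 0.67 for 4U against 2U, so the untreated 4 h library also lay above 2U, and with 4U in place of 2U as the control 8 genes were higher in 2T and 2 lower.

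The miRNA processing and RNA decay enzymes had 2 of 14 higher and 3 lower. XPO5, which exports pre-miRNAs from the nucleus, was lower at 7.75 FPKM (2U), 2.62 (2T), 4.39 (4U) and 2.41 (4T). EIF2C2, the Argonaute 2 gene, was lower at 2.18 FPKM (2U), 1.05 (2T) and 1.59 (4U). The exosome subunit EXOSC3 was higher at 4.09 FPKM (2U), 10.7 (2T) and 6.37 (4U). DROSHA, which cuts primary miRNAs, was level at 1.17 FPKM (2U), 1.21 (2T), 0.819 (4U) and 0.816 (4T), the nuclease XRN2 was within 2-fold at 6.01 FPKM (2U), 6.94 (2T), 3.39 (4U) and 6.08 (4T), and DICER1 was listed at 0 in all 4 libraries. The steps of the pathway thus had no common direction. Chromatin regulators had 4 of 16 higher and 2 lower. HDAC1, a histone deacetylase, was higher at 1.24 FPKM (2U), 5.23 (2T), 2.27 (4U) and 7 (4T). EZH2, the methyltransferase of Polycomb, was higher at 1.28 FPKM (2U), 3.36 (2T), 2.08 (4U) and 6.61 (4T). POLR2A, the large subunit of RNA polymerase II, was lower at 5.23 FPKM (2U), 2.53 (2T) and 8.04 (4U).

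Replication-dependent histone mRNAs mostly lack a poly(A) tail, and 20 of 33 such genes still reached 1 FPKM. Of these, 9 were listed at 0 in 2T, beside 203 of the 5680 genes described, and these 9 enter no ratio. Of the 11 compared, 4 were lower and 2 higher. HIST1H2BK was the most abundant, at 52.2 FPKM (2U), 26.4 (2T), 33.3 (4U) and 27.2 (4T). HIST1H2AG was at 4.31 FPKM in 2U, 0.221 in 2T and 4.17 in 4U and was listed at 0 in 4T. Host genes of snoRNAs and other long non-coding RNAs had 3 of 9 lower and 1 higher. SNHG1, which hosts several snoRNAs, was lower at 160.2 FPKM (2U), 65.3 (2T), 145 (4U) and 57.1 (4T). SNHG12 was lower at 8.94 FPKM (2U), 3.46 (2T), 40.6 (4U) and 5.48 (4T). SNHG7, the higher one, was at 16 FPKM (2U), 32.6 (2T), 9.3 (4U) and 28.2 (4T).

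Mitotic genes were more often higher than lower in 2T. Of 30 compared G2 and mitosis genes 12 were higher and 4 lower, with a median log2 ratio of 0.69, and 2T was above both untreated libraries in 21. CDK1, the mitotic kinase, was at 4.04 FPKM (2U), 24.9 (2T), 4.78 (4U) and 27 (4T). TPX2, a spindle assembly factor, was at 5.08 FPKM (2U), 25.2 (2T), 11.7 (4U) and 18.5 (4T). MAD2L1, of the spindle checkpoint, was at 2.93 FPKM (2U), 18.4 (2T), 7.02 (4U) and 19.1 (4T). In these 3 both treated libraries were above both untreated ones. UBE2C, which works with the anaphase-promoting complex, was lower at 391 FPKM (2U), 159 (2T) and 325 (4U). CDC25B, a phosphatase that activates CDK1, was lower at 36.7 FPKM (2U), 11.7 (2T), 29.9 (4U) and 8.04 (4T). CCNB1, the cyclin partner of CDK1, was within 2-fold at 401 FPKM (2U), 528 (2T), 249 (4U) and 617 (4T), so CDK1, its activator and its cyclin each differed in direction or size. Replication and G1/S genes had 8 of 28 higher and 6 lower. PCNA, the sliding clamp, was higher at 47.5 FPKM (2U), 215 (2T), 75.7 (4U) and 217 (4T). PCNA-AS1, an antisense transcript of that locus, was at 0.567 FPKM (2U), 505 (2T), 138 (4U) and 517 (4T). RFC4, which helps load the clamp, was higher at 3.78 FPKM (2U), 14.8 (2T), 8.59 (4U) and 18.3 (4T). The helicase subunit MCM5 was lower at 82.2 FPKM (2U), 29 (2T), 47.6 (4U) and 22.2 (4T). CDK4, the G1 kinase, was lower at 948 FPKM (2U), 444 (2T), 685 (4U) and 479.9 (4T), and CCND3, a cyclin that activates it, was lower at 15 FPKM (2U), 4.13 (2T), 34.9 (4U) and 3.06 (4T). Both shares were near those over all genes, and the list had no common direction.

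In metabolism the TCA cycle list had 8 of 16 genes higher and 1 lower, with a median log2 ratio of 0.86, and against 4U 4 were higher and 1 lower with a median of 0.39. PDHB, of pyruvate dehydrogenase, was at 14.6 FPKM (2U), 55.1 (2T), 19.8 (4U) and 56.2 (4T). FH, fumarase, was at 4.78 FPKM (2U), 11.9 (2T), 6.49 (4U) and 13.2 (4T). DLD, shared by several dehydrogenases, was at 1.57 FPKM (2U), 3.65 (2T), 0.72 (4U) and 4.18 (4T). In these 3 both treated libraries were above both untreated ones. MDH2, malate dehydrogenase, was above 2U and below 4U, at 221 FPKM (2U), 476 (2T) and 551 (4U). SDHA, of succinate dehydrogenase, was the lower one at 77.7 FPKM (2U), 38.4 (2T) and 40.8 (4U). Glycolysis had 4 of 17 higher and 5 lower. GAPDH, the most abundant mRNA of 2T, was at 19176 FPKM (2U), 43767 (2T), 36197 (4U) and 38022 (4T), with 2U standing apart from the other 3 libraries. ALDOA, aldolase, was lower at 3706 FPKM (2U), 1071 (2T), 2561 (4U) and 818 (4T). PFKP, a phosphofructokinase, was lower at 641 FPKM (2U), 208 (2T), 450.0 (4U) and 161 (4T). ENO1 was level, at 12609 and 12475 FPKM in 2U and 2T. Steps of glycolysis thus went in both directions. Respiratory chain subunits were mostly level, with 11 of 68 higher and 5 lower. UQCRC1, of complex III, was lower at 1247 FPKM (2U), 518 (2T), 1076 (4U) and 342 (4T). ATP5D, of ATP synthase, was lower at 124 FPKM (2U), 24.6 (2T), 60.4 (4U) and 18.7 (4T), while ATP5I, of the same complex, was higher at 116 FPKM (2U), 322 (2T), 201 (4U) and 359 (4T).

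Cholesterol synthesis genes had 3 of 13 higher and 3 lower. INSIG1, which retains SREBP in the endoplasmic reticulum, was lower at 20.4 FPKM (2U), 6.69 (2T), 18.9 (4U) and 9.67 (4T). PMVK, of the mevalonate pathway, was higher at 7.73 FPKM (2U), 23.8 (2T) and 21.7 (4U). HMGCS1, another enzyme of that pathway, did not reach 1 FPKM in 2U or 2T. Fatty acid genes had 5 of 17 higher and 2 lower, with the electron carrier ETFB higher at 49.6 FPKM (2U), 108 (2T), 83.3 (4U) and 85.1 (4T).

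Cytoskeletal genes had 10 of 35 higher and 4 lower. ACTB, beta actin, was at 653 FPKM (2U), 2305 (2T), 2198 (4U) and 1827 (4T). TAGLN2, an actin-binding protein, was at 251 FPKM (2U), 2275 (2T), 1962 (4U) and 1968 (4T). CFL1, cofilin, which severs actin filaments, was at 1238 FPKM (2U), 3349 (2T), 3034 (4U) and 3594 (4T). In these 3 the 4U value was close to the treated ones and 2U stood apart, and ACTB has many processed copies. STMN1, which destabilises microtubules, was at 536 FPKM (2U), 1765 (2T), 761 (4U) and 1982 (4T), higher in both treated libraries. The lower genes included TMSB10, MYL9 and ZYX. TMSB10, a thymosin that binds actin monomers, was at 11364 FPKM (2U), 4231 (2T), 5740.4 (4U) and 5211 (4T). MYL9, a myosin light chain, was at 53.3 FPKM (2U), 7.37 (2T), 22 (4U) and 11.2 (4T). ZYX, a focal adhesion protein, was at 296 FPKM (2U), 48.3 (2T), 189 (4U) and 31.5 (4T). These 3 were below both untreated libraries in 2T. The tubulins TUBB, at 2984 and 2416 FPKM, and TUBA1B, at 9430.3 and 7105 FPKM in 2U and 2T, were within 2-fold.

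The extremes of the whole comparison were taken among genes of at least 5 FPKM in 2U or 2T, above 0 in all 4 libraries and with 2T outside the span of 2U and 4U. Among the 12 lowest ratios were those of HSPA6, HSPA7, UCK1, FOS, RPL21, HSPA1A, HSPA1B, DUSP1, DNAJB1, ARC and DUSP5, out of 1288 genes that met the rule with 2T lowest. Of the 12, 8 are heat shock and early response genes already described. ARC, an early gene best known in neurons, was at 5.12 FPKM (2U), 0.141 (2T), 1.78 (4U) and 0.345 (4T). UCK1, a uridine kinase, was at 9.5 FPKM (2U), 0.0337 (2T), 0.234 (4U) and 0.226 (4T) and so was above 1 FPKM in 2U alone.

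The 12 highest ratios by the same rule, out of 1049 genes with 2T highest, were DPH1, LOC100133957, PCNA-AS1, CCDC42B, EPR1, MIR3917, C19orf33, PMPCB, NUTF2, EEF1E1, HNRNPA1P10 and LOC441454. All 12 were under 1 FPKM in 2U. DPH1, a diphthamide synthesis enzyme, was at 0.0003 FPKM (2U), 5.31 (2T), 1.31 (4U) and 3.94 (4T) and shares its locus with OVCA2, at 289.7 FPKM (2U), 107 (2T) and 261 (4U). MIR3917 lies within STMN1, on the same strand, and was at 0.944 FPKM (2U), 136 (2T), 104 (4U) and 323 (4T). NUTF2, which imports RAN into the nucleus, was at 0.812 FPKM (2U), 60.8 (2T), 45.9 (4U) and 58.6 (4T). PMPCB, a mitochondrial processing peptidase, was at 0.0722 FPKM (2U), 7.54 (2T), 5.07 (4U) and 9.82 (4T). CCDC42B was at 0.0103 FPKM (2U), 6.13 (2T), 5.06 (4U) and 0.928 (4T). EEF1E1, an accessory protein of the synthetase complex, was at 0.472 FPKM (2U), 30.3 (2T), 2.09 (4U) and 10.2 (4T), and C19orf33 was at 0.127 FPKM (2U), 14 (2T), 1.69 (4U) and 25.1 (4T). In LOC100133957, CCDC42B, MIR3917, PMPCB and NUTF2 the level in 2T was within 2-fold of 4U, so 5 of the 12 were called against 2U alone, while EPR1 and EEF1E1 stood furthest above 4U.

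Overlapping genes occurred throughout. Among the 5344 compared genes with a position in GRCh37 there were 519 overlapping pairs. In 53 of them 1 gene was at least 2-fold higher and the other at least 2-fold lower, against 42 pairs called in the same direction. Over all genes 23.5% were higher and 19.9% lower, and whether opposite calls exceeded what these shares give was not tested. Of the 53, 47 pairs lay on opposite strands. Most of the 519 pairs did so as well, so this count is not read as particular to pairs with opposite calls. The 53 include SQSTM1 and MGAT4B, BAD and GPR137, and PSME3 and BECN1. They also include SNHG7 and FAM69B, EIF3G and P2RY11, MRPS7 and GGA3, and SHC1 and PYGO2. Whether reads were assigned by strand is not given in the sources used here, so values of such genes are uncertain.

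Genes listed at 0 in 2T were kept apart, because an exact 0 in this kind of table can be a failed estimate and gives no fold. Of the 203 genes, 116 were at 1 FPKM or more in 4T, 40 between 0 and 1 and 47 at 0. A stricter set of 83 genes was at 0 in 2T and at 1 FPKM or more in each of 2U, 4U and 4T, out of 4272 genes at that level in the other 3 libraries. The same count was 0 for 2U, 4 for 4U and 1 for 4T, so zeros in 1 library alone were mostly in 2T. Zeros shared by both 2 h libraries also occurred, in 73 genes at 1 FPKM or more in both 4 h libraries. Among them was TPI1, a glycolytic enzyme named here after its values were seen, which was listed at 0 in 2U and 2T against 5818 FPKM (4U) and 3956 (4T). Of the 83, 32 were at 10 FPKM or more in all 3 other libraries and 10 at 100 FPKM or more.

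The 12 with the highest lowest value were EEF1D, CCT7, CCT3, GNAS, SPCS1, CLTA, FDPS, RPL17, MRPS12, VDAC2, MRPL55 and TAF9, and they include genes that cells use throughout. EEF1D, an elongation factor subunit, was at 885 FPKM in 2U, 596 in 4U and 410.0 in 4T. CCT7 was at 523, 343 and 407 FPKM in the same order, and GNAS, a G protein subunit, at 536, 629 and 242 FPKM. FDPS, farnesyl diphosphate synthase, was at 160.4, 249 and 247 FPKM, and RPL17 at 229, 151 and 433 FPKM. In 4T, the other treated library, each of these was again abundant. Of the 77 with a position, 17 lay within 1 kb of another gene of the 83, among them FDPS with RUSC1, MRPS12 with SARS2, and SPCS1 with GLT8D1. Expressed neighbours that were not at 0 numbered 18, and how often expressed genes in general lie so close was not tested. The part of the table's own processing in these zeros was not tested.

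The 4 h pair, 4T against 4U, shares no library with the 2 h pair, and 16.6% of its 5971 genes were at least 2-fold higher and 28.2% at least 2-fold lower. Of the 1274 genes higher at 2 h that could be compared at 4 h, 453 (35.6%) were higher there too, which is 51.3% of the 883 genes higher at 4 h among those compared at both times, and 148 (11.6%) were lower. Of the 1077 genes lower at 2 h, 558 (51.8%) were lower at 4 h, which is 38.6% of 1447, and 34 (3.16%) were higher. Over all 5429 genes compared at both times, 16.3% were higher and 26.7% lower at 4 h. Of the AP-1 genes 6 were lower at both times, FOS, FOSL1, FOSL2, JUN, JUND and BATF3. Proteasome subunits had 13 higher and 0 lower at 4 h, and CCT and prefoldin genes 8 higher and 0 lower. Splicing regulators had 11 higher and 3 lower at 4 h, and ribosome biogenesis genes 6 higher and 7 lower.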

How the data were processed

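Polyadenylated RNA of 4 SK-HEP-1 cultures was amplified, sequenced on the SOLiD platform and aligned to hg19 by the authors. The labels name TopHat and Cufflinks and the methods Bowtie and Cufflinks. The deposited values are FPKM per gene symbol, 1 library per condition, with no read counts, so no test was made and values were used as deposited. The 2 h columns hold values between 0 and 0.2 FPKM and the 4 h columns hold none, and only for the 4 h columns is the number of genes above 0 the one the study lists, so the 2 h columns may come from another processing version. The log2 ratio of 2T to 2U was taken directly, with no value added, wherever neither library was at 0 and at least 1 of them reached 1 FPKM, and 2-fold was used as the call. The members and the 45 gene lists were chosen with earlier results of these data known. Named genes were the 12 most extreme ratios in each direction under the rule given in the text, in each list the highest and lowest ratio and up to 6 members past 2-fold, the most abundant first, genes the study discusses, the 10 most abundant genes and the 12 most abundant genes at 0 in 2T. Other genes, such as overlapping partners, were named after their values were seen. Positions came from GENCODE release 44 mapped to GRCh37 (20823 of 22314 symbols matched) and promoters from RefSeq GRCh38.p14. Scripts used Python 3.11.15, numpy 2.4.6 and pandas 2.3.3 and were tested on simulated data. Libraries of mouse BNL CL.2 cells and small RNA were not used here. Some genes that met the naming rule are not reported here.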

Additional observations from a re-analysis of the deposited data

Results flagged for a closer look

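For 5 of the genes named in this text the treated library was past 2-fold from the untreated one in opposite directions at the 2 times. For CCDC42B the log2 ratio of treated to untreated was 9.22 at 2 h and -2.45 at 4 h. For RPL21 it was -7.08 at 2 h and 7.52 at 4 h. MGAT4B had 5.35 and -2.06, SLC7A5 2.06 and -1.79, and FDXR 1.44 and -1.16. In these last 3 the value in 2T lay between those in 2U and 4U. With 1 library per condition the difference between the times was not tested.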

How the results depend on the processing

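With other minimum levels, the genes higher and lower in 2T numbered 757 and 745 (at least 1 FPKM in both libraries), 667 and 646 (at least 5 in either), 470 and 484 (at least 10) and 1981 and 1554 (no minimum). With a pseudocount of 1 there were 855 higher and 926 lower genes, so the order of the 2 counts turned, as it did with a minimum of 10 and with 4U as control. At 3-fold there were 734 higher and 511 lower, and at 1.5-fold 1815 higher and 1703 lower. With 4U in place of 2U there were 748 higher and 1205 lower genes. The median log2 ratio was -0.032 (at least 1 in both), -0.044 (at least 5), -0.081 (at least 10), -0.035 and -0.028 (pseudocounts of 0.1 and 1), 0.080 (equal sums), -0.039 (equal upper quartiles), -0.28 (4U as control) and -0.040 (mean of 2U and 4U as control), so its sign depends on the setting. Of the genes at 0 in 2T, 40 had at least 5 FPKM in each other library and 32 at least 10. The list median was 0.43 for DUSP and SPRY genes with 1 FPKM in both libraries, which leaves out DUSP5, DUSP6 and SPRED2, and 0.30 for TGF-beta genes with no minimum. Of the 533 list medians under the alternatives, 99 others changed sign or crossed 0.5 in size, 23 of them with 4U as control, where the median was 0.15 for ribosome biogenesis, 0.39 for the TCA cycle and -0.41 for NRF2 targets. Of the reported genes past 2-fold against 2U, the log2 ratio had the other sign with 4U as control for RPLP0 (-0.30, from 1.06 against 2U), BAD (-0.055), EIF3G (-0.58), FDXR (-0.38), MDH2 (-0.21), MGAT4B (-0.083), SLC7A5 (-0.78), TKT (-0.45), TP53I3 (-0.55) and XBP1 (0.84). Of 2130 values for 171 named genes, 99 kept the direction but were no longer past 2-fold. No paired analysis was possible because each of the groups compared holds 1 library. The table gives no read counts, so low values, near-identical copies and overlapping genes limit single calls.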
